A study of Mus musculus with 4 samples.

Results

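This account covers 40 genes that encode enzymes of glycolysis, of the pentose phosphate pathway, and of pyruvate dehydrogenase and the tricarboxylic acid (TCA) cycle, measured in mouse B cells. They were chosen by name from a list of 17 glycolysis genes, 7 pentose phosphate genes and 16 pyruvate dehydrogenase and TCA genes. All 40 were found among the 13792 genes with a value in each RNA library. In the first library, naive B cells of C57BL/6 mice had been infected with RVKM-Ascl2, a retrovirus that carries the basic helix-loop-helix transcription factor gene Ascl2. In the other, the same kind of cells had received RVKM-Empty, the virus with no insert. Both cultures were kept with anti-IgM, which engages the B cell receptor, and anti-CD40, which stands in for T cell help. Each group was 1 library, so the values have no replicate error, differences cannot be set against a spread between replicates, and no p-value was computed. Neither the time in culture, nor the share of infected cells, nor any sort of them is stated in the labels. The 2 chromatin samples of the series, an input and an Ascl2 immunoprecipitation from germinal centre B cells, were not analysed here.

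Glycolysis splits glucose into pyruvate in the cytosol, and lactate dehydrogenase can turn that pyruvate into lactate. The pentose phosphate pathway branches off at glucose 6-phosphate. Its oxidative branch makes NADPH and ribulose 5-phosphate, and its non-oxidative branch shuffles sugars between ribose for nucleotides and the intermediates of glycolysis. Pyruvate dehydrogenase carries pyruvate into the mitochondrial TCA cycle as acetyl-CoA. B cells that are driven to divide by their antigen receptor and CD40 are known to take up more glucose and to use all of these routes.

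The libraries matched their labels at the inserted gene. Ascl2 had a value of 29.4 in the RVKM-Ascl2 library and 0.0809 in the RVKM-Empty library. The deposited values are abundances scaled for depth, without a named unit, and they summed to 763932 in the Ascl2 library and 750692 in the empty-vector library. Among 1842 genes under 1.2 in both libraries the empty-vector column held 1828 distinct values, so 1 read was not worth the same in every gene, as in units scaled by gene length. Levels of different genes are compared below on that reading. Absolute depth is unknown. All 7 B cell markers examined (Cd79a, Cd79b, Ms4a1, Pax5, Ebf1, Cd22 and Blnk) were present, at 24.3 to 626 in the Ascl2 library and 22.02 to 748 in the empty-vector library. Their sum was 2019 with Ascl2 and 2338 with the empty vector. Of these 7, 5 were lower with Ascl2 and 2 higher, beside 51.6% lower among all genes that reached 1 in a library. Of 7 T cell markers only Lck had a row, and its values were 17.8 with Ascl2 and 21.7 with the empty vector. Of 8 myeloid markers 7 had a row, with a sum of 50.5 with Ascl2 and 45.8 with the empty vector. The sum of 3 erythroid markers was 3.63 with Ascl2 and 5.17 with the empty vector, and that of 3 stromal markers was 5.42 with Ascl2 and 2.73 with the empty vector; 3 other erythroid and 2 other stromal markers had no row. The 5 plasma cell markers, which activated B cells can also express, summed to 693 with Ascl2 and 445 with the empty vector. Jchain alone had 301 of that sum with Ascl2 and 113 with the empty vector. In the other direction went 1 marker, Sdc1, at 2.37 with Ascl2 and 2.99 with the empty vector. The part of these cell type markers in the enzyme values was not tested. In bulk RNA, fewer cells of a type and less RNA per cell cannot be told apart. Immunoglobulin genes and Pcdh15 together took 12.9% of all values in the Ascl2 library and 5.56% in the empty-vector library. The single gene Pcdh15, which is not an immunoglobulin gene, took 3.40% with Ascl2 and 0.0641% with the empty vector. The immunoglobulin genes took 9.52% with Ascl2 and 5.50% with the empty vector. Because abundances are relative, these shares bear on every ratio below.

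The enzymes of central carbon metabolism had closely similar levels in both libraries. Differences are given as the log2 ratio of the Ascl2 value plus 1 to the empty-vector value plus 1, and a gene was kept where the larger of its 2 values was 1 or more. All 40 enzymes were kept, among 12283 genes. None of the 40 was at least 1.5-fold higher with Ascl2, where 5.01% of all kept genes were, and 1 was at least 1.5-fold lower, where 4.31% of all kept genes were. No enzyme differed by 2-fold in either direction (1.53% of kept genes were at least 2-fold higher and 0.716% at least 2-fold lower). A log2 ratio between −0.3 and 0.3, a range set after the values were seen, was found for 35 of the 40, or 87.5%, and for 66.7% of all kept genes. Among genes that reached 50 in a library, 65.8% of all and 24 of 28 enzymes lay in that range. The 5 enzymes outside it were Pgls, Pfkl, Gapdh and Pgd, all lower with Ascl2, and Pfkfb3, which was higher; Gapdh and Pgd (both −0.31) were just outside and Tkt (−0.30) just inside.

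The enzymes leaned slightly to lower values in the Ascl2 library. Of the 40, 25 had a log2 ratio below 0 and 15 above it, so that 62.5% were below 0, where 51.6% of all kept genes were. That count of 25 was 29, or 72.5%, when both libraries were scaled to equal sums, where 54.9% of all kept genes were below 0. It was 21, or 52.5%, when immunoglobulin genes and Pcdh15 were left out of those sums, where 40.6% of all kept genes were below 0. Abundant genes leaned the same way, since 60.6% of all genes that reached 50 were below 0, beside 19 of 28 enzymes at that level. The median log2 ratio was −0.11 over the 40 enzymes and −0.01 over all kept genes. By pathway it was −0.11 for glycolysis, −0.27 for the pentose phosphate pathway and −0.02 for pyruvate dehydrogenase and the TCA cycle. When the Ascl2 library was rescaled so that the sums without immunoglobulin genes and Pcdh15 were equal, the medians became −0.02 for all enzymes, −0.02 for glycolysis, −0.18 for the pentose phosphate pathway and 0.07 for pyruvate dehydrogenase and the TCA cycle, beside 0.07 for all kept genes. That rescaling multiplies every Ascl2 value by the same factor, so it shifts the medians of the pathways and of all kept genes together.

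**Figure D1:**
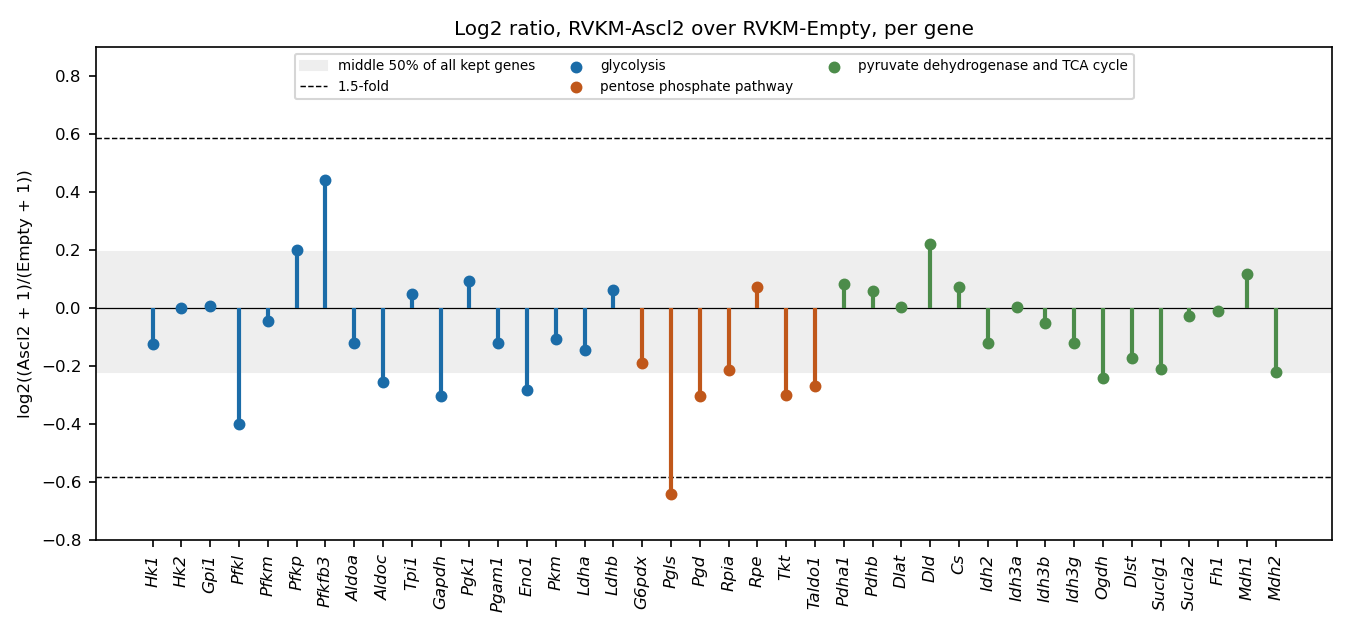
Log2 ratio of RVKM-Ascl2 over RVKM-Empty for each of the 40 enzymes, coloured by pathway, with 1 library per group. The grey band holds the middle 50% of all 12283 kept genes (−0.22 to 0.19) and the dashed lines mark 1.5-fold; Pgls alone lies beyond them, and Pfkfb3 is the highest.

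The promoters of 4 enzymes are shown, because Ascl2 binds DNA at E-boxes and these hold the E-box forms searched for, in the enzymes with the lowest ratio (Pgls), with CAGCTG (Rpe and Dld, 2 of 4 such enzymes) and with the most ACGTG (Ldha). The sequences are the 250 bases before an annotated start, from RefSeq on GRCm38.p6, written 5′ to 3′ on the strand of the gene. Ascl family factors are known to bind the E-box CAGCTG, Myc is known to bind CACGTG, and ACGTG is the core of hypoxia response elements. Capitals mark CANNTG in Pgls, CAGCTG in Rpe and Dld, and ACGTG on either strand in Ldha, where ACGTG overlaps CACGTG. The coordinates are chr8:71591934-71592183 on the plus strand for Pgls, chr1:66700581-66700830 on the plus strand for Rpe, chr12:31351472-31351721 on the minus strand for Dld and chr7:46845554-46845803 on the plus strand for Ldha.
Pgls: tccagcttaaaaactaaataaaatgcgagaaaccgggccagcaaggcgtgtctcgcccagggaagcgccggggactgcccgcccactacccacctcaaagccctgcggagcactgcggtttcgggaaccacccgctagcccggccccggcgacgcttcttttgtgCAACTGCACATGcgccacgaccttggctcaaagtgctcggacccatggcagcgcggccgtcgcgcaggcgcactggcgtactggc
Rpe: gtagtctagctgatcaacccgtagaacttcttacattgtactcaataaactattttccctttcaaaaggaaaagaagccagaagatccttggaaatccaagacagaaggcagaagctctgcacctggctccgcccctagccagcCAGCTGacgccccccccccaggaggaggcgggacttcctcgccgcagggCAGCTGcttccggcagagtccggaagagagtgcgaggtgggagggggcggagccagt
Dld: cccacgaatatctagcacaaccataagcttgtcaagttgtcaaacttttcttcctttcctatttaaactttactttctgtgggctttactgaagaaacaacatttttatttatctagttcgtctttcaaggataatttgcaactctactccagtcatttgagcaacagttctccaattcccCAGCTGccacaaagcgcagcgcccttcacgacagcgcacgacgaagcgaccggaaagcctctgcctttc
Ldha: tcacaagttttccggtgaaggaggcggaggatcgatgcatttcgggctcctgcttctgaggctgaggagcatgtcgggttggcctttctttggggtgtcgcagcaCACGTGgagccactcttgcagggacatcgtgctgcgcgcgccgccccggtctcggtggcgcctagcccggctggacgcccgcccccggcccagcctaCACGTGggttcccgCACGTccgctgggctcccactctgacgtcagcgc

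Pgls, the enzyme with the lowest ratio, held 2 adjoining CANNTG motifs that begin 85 and 79 bases before its start, and no CAGCTG. Rpe (log2 ratio 0.07) held CAGCTG 106 and 57 bases before its start, and Dld (0.22) held 1 CAGCTG, 69 bases before its start. The other 2 enzymes with CAGCTG were Gpi1 (0.01) and Pkm (−0.11), so the 4 did not share a direction. In Ldha 2 copies of CACGTG begin 145 and 48 bases before the start, and a further ACGTG lies on the reverse strand at 34 bases. A promoter was available for 39 of the 40 enzymes (57 promoters). Motifs were searched on both strands in those 250 bases, and a gene was counted when any of its promoters held the motif. CAGCTG was found in 4 of the 39 (Dld, Gpi1, Pkm and Rpe), or 10.3%, against 13.4% of kept genes and 14.7% of all genes with a promoter. The general form CANNTG was found in 25, or 64.1%, against 61.1% of kept genes and 69.3% of all genes. CACGTG was found in 4 (Ldha, Ogdh, Pfkfb3 and Pfkm), or 10.3%, against 10.3% of kept genes and 6.86% of all genes. ACGTG was found in 12, or 30.8%, against 25.8% of kept genes and 18.5% of all genes, and 8 of those 12 were among the 17 glycolysis genes. None of the 7 pentose phosphate genes held ACGTG in this window. A match in these letters is a description and does not show a bound site.

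Glycolysis was the most abundant of the 3 pathways. Its 17 genes summed to 6986 in the Ascl2 library and 7866 in the empty-vector library, which is 0.914% of all values with Ascl2 and 1.05% with the empty vector. Gapdh, the enzyme that oxidises glyceraldehyde 3-phosphate, supplied 2356 of that sum with Ascl2 and 2912 with the empty vector. Without Gapdh the other 16 genes summed to 4630 with Ascl2 and 4954 with the empty vector. The spread of levels within the pathway was wide and nearly the same in both libraries, with Ldhb lowest (2.11 with Ascl2 and 1.98 with the empty vector).

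**Figure D2:**
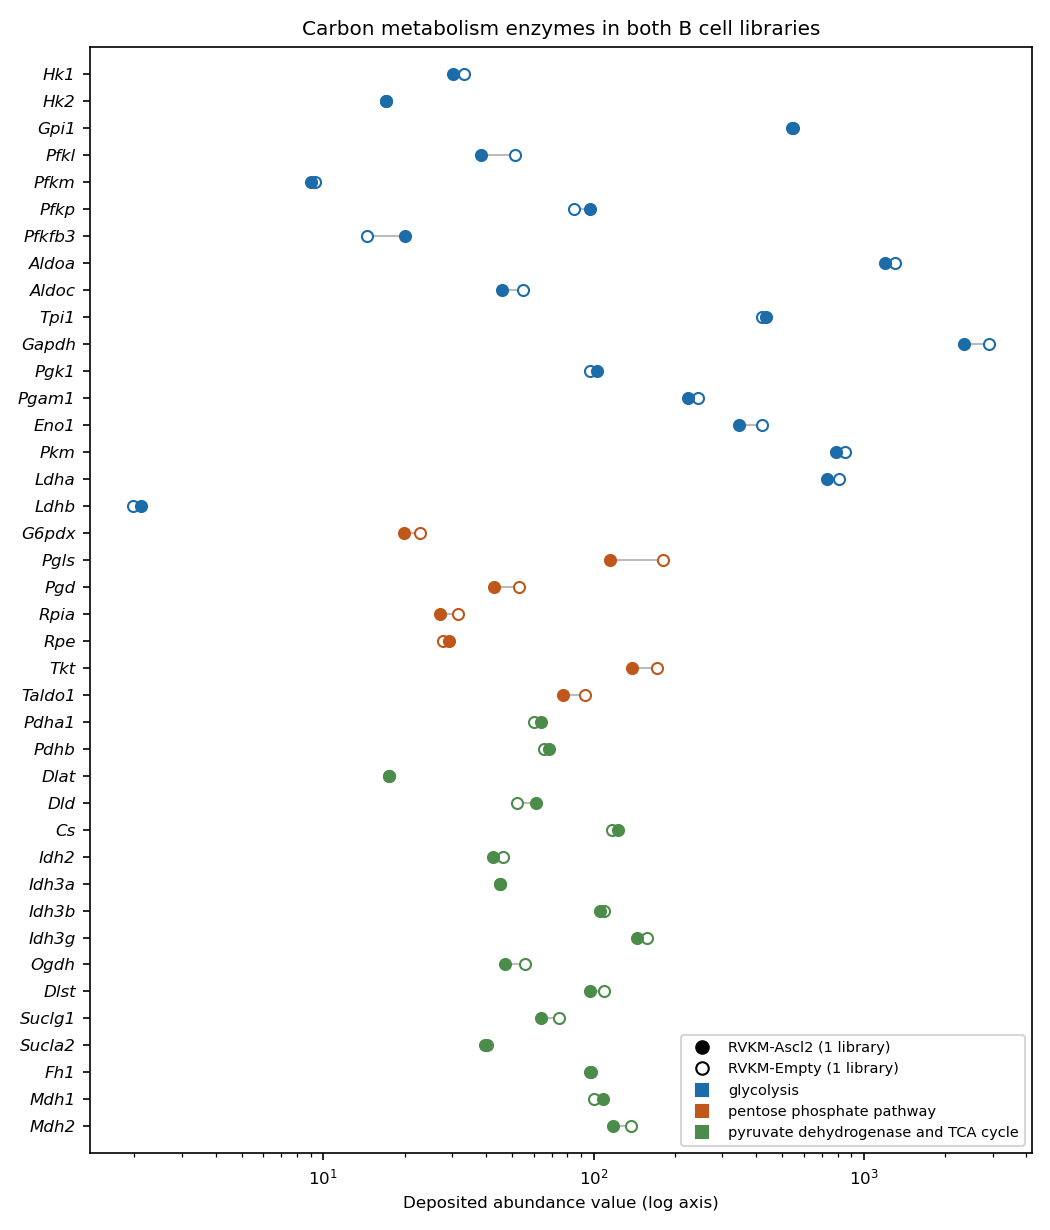
Deposited abundance value (log axis) of each enzyme in the RVKM-Ascl2 library (filled) and the RVKM-Empty library (open), 1 library each, coloured by pathway. Levels run from Ldhb at about 2 to Gapdh at 2356 with Ascl2 and 2912 with the empty vector, and the 2 points of a gene lie close together beside that range.

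Hexokinase, the entry step of glycolysis, had low levels next to the isomerase that follows it. Hexokinases trap glucose in the cell as glucose 6-phosphate. Hk1 had 30.2 with Ascl2 and 33.0 with the empty vector (log2 ratio −0.13). Hk2, the inducible hexokinase, had the same value of 17.1 in both libraries. Hk1 therefore took 63.9% of the summed hexokinase values with Ascl2 and 65.9% with the empty vector. Gpi1, the isomerase that makes fructose 6-phosphate, had 547 with Ascl2 and 544 with the empty vector. Hk1 and Hk2 together summed to 47.3 with Ascl2 and 50.1 with the empty vector. Against Hk2 alone, the lower of the pair, Gpi1 stood at about 32 times in each library.

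Phosphofructokinase, the committed step of glycolysis, had the clearest shift between isozymes. Pfkl, the liver-type subunit, had 38.3 with Ascl2 and 51.0 with the empty vector (log2 ratio −0.40). Pfkp, the platelet-type subunit, had 97.2 with Ascl2 and 84.5 with the empty vector (0.20). Pfkm, the muscle-type subunit, was low in both, at 8.99 with Ascl2 and 9.31 with the empty vector. The 3 subunits together were nearly equal in sum, at 144.5 with Ascl2 and 144.8 with the empty vector. Pfkp stood at 2.53 times the level of Pfkl with Ascl2 and at 1.66 times with the empty vector, a ratio within each library that no rescaling alters. Its share of the summed values was 67.2% with Ascl2 and 58.3% with the empty vector, and that of Pfkl was 26.5% with Ascl2 and 35.2% with the empty vector. Pfkp overlaps the opposite-strand gene Pitrm1 over 285 bases, and Pitrm1 itself had 27.0 with Ascl2 and 27.2 with the empty vector. Pfkm overlaps the opposite-strand gene Senp1 over 981 bases, and Senp1, at 22.3 with Ascl2 and 22.1 with the empty vector, was more abundant than Pfkm.

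Pfkfb3 had the highest ratio of the 40. It encodes the kinase that makes fructose 2,6-bisphosphate, the strongest activator of phosphofructokinase. Its value was 20.1 in the Ascl2 library and 14.5 in the empty-vector library, a log2 ratio of 0.44, which 91.7% of all kept genes lay below. Under the other pseudocounts, rescalings and trend corrections the ratio was between 0.35 and 0.53, short of 1.5-fold each time. The gene lies on chromosome 2 at 11471430 to 11554071 (GRCm38) and overlaps the opposite-strand non-coding genes Gm52500 and Gm10851 of the reference table, which had no values here.

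The splitting of fructose 1,6-bisphosphate and the triose step differed little. Aldoa, the main aldolase of these cells, had 1201 with Ascl2 and 1308 with the empty vector. Aldoc, its minor isozyme, had 45.8 with Ascl2 and 54.9 with the empty vector (log2 ratio −0.26). Aldoa held 96.3% of the aldolase values with Ascl2 and 96.0% with the empty vector. Tpi1, which interconverts the triose phosphates, had 434 with Ascl2 and 420 with the empty vector (0.05).

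In the later steps of glycolysis, 4 of 5 enzymes had lower values in the Ascl2 library. All 5 reached 50, and 60.6% of all genes at that level had a ratio below 0. Gapdh had a log2 ratio of −0.31, and 17.0% of all kept genes lay below that. Eno1, the enolase that makes phosphoenolpyruvate, had 345 with Ascl2 and 419 with the empty vector (−0.28). Pgam1, the mutase before it, had 223 with Ascl2 and 243 with the empty vector (−0.12), and Pkm, the pyruvate kinase that ends the pathway, had 788 with Ascl2 and 849 with the empty vector (−0.11). Pgk1, the kinase that follows Gapdh, went the other way, at 103 with Ascl2 and 96.7 with the empty vector (0.09). Gapdh therefore stood at 22.9 times the level of Pgk1 with Ascl2 and at 30.1 times with the empty vector. The 5 enzymes summed to 3814 with Ascl2 and 4521 with the empty vector, or 0.844 times.

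Several of these enzymes have near-identical copies in the mouse genome, so some of their reads could have been counted elsewhere. Pgk1-rs7 had 10.6 with Ascl2 and 9.15 with the empty vector, which is 10.3% of the Pgk1 value with Ascl2 and 9.46% with the empty vector. Pgam1-ps2 was at 1.36% of Pgam1 with Ascl2 and 1.59% with the empty vector, and Eno1b and Gapdh-ps15 were each under 1% of their parent gene. Copies that carry other names were not searched for, and the values of Pgk1, Pgam1, Eno1 and Gapdh are uncertain to that extent.

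Lactate dehydrogenase was almost wholly of the Ldha kind, whose subunit favours the making of lactate. Ldha had 730.1 with Ascl2 and 807 with the empty vector (log2 ratio −0.15). Ldhb, the heart-type subunit, made up 0.288% of the summed values with Ascl2 and 0.244% with the empty vector. At values near 2 the ratio of Ldhb is the least precise of the 40.

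**Figure D3:**
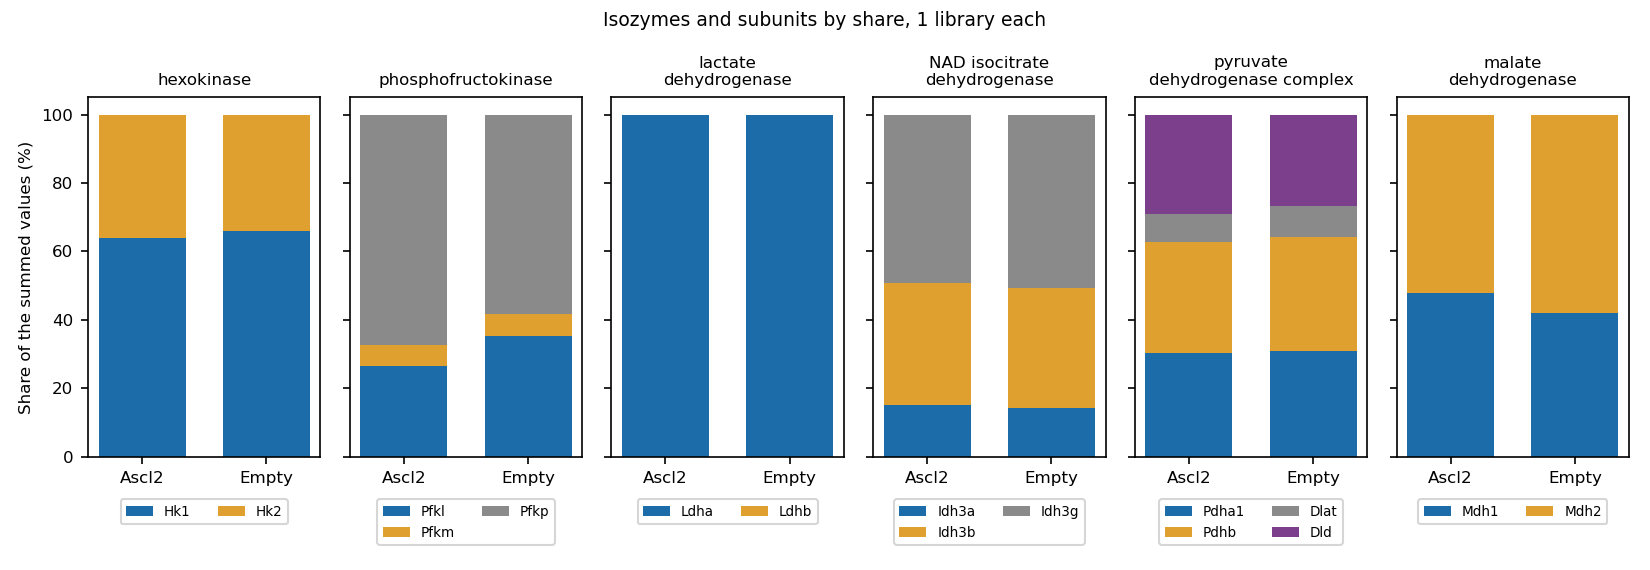
Share of the summed values of an enzyme (%) taken by each isozyme or subunit gene in the RVKM-Ascl2 library (left bar) and the RVKM-Empty library (right bar), 1 library each. Pfkp takes 67.2% of phosphofructokinase with Ascl2 and 58.3% with the empty vector, and Mdh1 takes 47.9% of malate dehydrogenase with Ascl2 and 42.1% with the empty vector, while lactate dehydrogenase is nearly all Ldha in both.

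The pentose phosphate pathway had the lowest ratios of the 3. Of its 7 genes 6 were lower in the Ascl2 library and 1 was higher, where 51.6% of all kept genes were lower. The same 6-to-1 split was found under every pseudocount, rescaling and trend correction run, where 40.6% to 54.9% of all kept genes were below 0. Those settings all use the same 2 libraries, so they are not separate evidence. The 7 genes summed to 450.2 with Ascl2 and 580.2 with the empty vector, or 0.776 times. Only 1 of the 7, Pgls, passed 1.5-fold, on the lower side, where 4.31% of all kept genes did.

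All 3 enzymes of the oxidative branch, which makes NADPH, were lower with Ascl2, beside 51.6% of all kept genes. Pgls, the lactonase that acts between the dehydrogenases, had 115.4 with Ascl2 and 180.7 with the empty vector, a log2 ratio of −0.64, and 3.18% of all kept genes lay lower. This gene lies on chromosome 8 at 71592184 to 71596267 (GRCm38) and overlaps no other gene of the reference table. Without immunoglobulin genes and Pcdh15 in the scaling its ratio was −0.55, with the trend by level removed −0.58 and with the trend by gene span removed −0.47, each within 1.5-fold. Pgd, the second NADPH-producing dehydrogenase, had 42.8 with Ascl2 and 53.1 with the empty vector (−0.31). G6pdx, the glucose-6-phosphate dehydrogenase that commits sugar to the pathway, had 19.8 with Ascl2 and 22.8 with the empty vector (−0.19). G6pdx lies wholly within the span of Ikbkg on the other strand in the reference table, and Ikbkg had 16.2 with Ascl2 and 17.6 with the empty vector, so reads of the pair may not be separable. The branch summed to 178 with Ascl2 and 257 with the empty vector, a difference to which Pgls contributed most.

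The non-oxidative branch leaned the same way by smaller amounts. Tkt, the transketolase, had 139 with Ascl2 and 171 with the empty vector (log2 ratio −0.30). Taldo1, the transaldolase, had 76.9 with Ascl2 and 92.9 with the empty vector (−0.27). These partner enzymes kept their proportion, with Tkt at 1.81 times Taldo1 with Ascl2 and 1.84 times with the empty vector. Rpia, the isomerase that forms ribose 5-phosphate for nucleotides, had 27.03 with Ascl2 and 31.5 with the empty vector (−0.22). Rpe, the epimerase, was the exception at 29.1 with Ascl2 and 27.7 with the empty vector (0.07). Rpe overlaps the opposite-strand gene Kansl1l over 563 bases, and Kansl1l had 4.16 with Ascl2 and 2.40 with the empty vector.

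The 4 genes of the pyruvate dehydrogenase complex, which links glycolysis to the TCA cycle, all had ratios above 0, as did 48.4% of all kept genes. Dld, the dihydrolipoamide dehydrogenase subunit that the complex shares with 2-oxoglutarate dehydrogenase, had 61.04 with Ascl2 and 52.3 with the empty vector (log2 ratio 0.22). Pdha1 and Pdhb encode the α and β chains of the first enzyme. Pdha1 had 63.7 with Ascl2 and 60.1 with the empty vector (0.08). Pdhb had 68.2 with Ascl2 and 65.5 with the empty vector (0.06), and the α to β proportion was 0.934 with Ascl2 and 0.917 with the empty vector. Dlat, the acetyl transferase core, was scarcer than its partners, at 17.6 with Ascl2 and 17.5 with the empty vector. The complex summed to 211 with Ascl2 and 195 with the empty vector. When the libraries were scaled to equal sums over all genes, 1 of the 4 genes had a ratio below 0, beside 54.9% of all kept genes.

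Of the 12 listed genes of the TCA cycle 9 were lower with Ascl2, beside 51.6% of all kept genes. All 12 ratios lay between −0.24 and 0.12. The 12 include Mdh1, which encodes a cytosolic enzyme, and no gene of succinate dehydrogenase, whose genes were on the list of other genes. Of the 12, 6 were lower when immunoglobulin genes and Pcdh15 were left out of the scaling, which raises every ratio and leaves 40.6% of all kept genes below 0. Cs, the citrate synthase that starts the cycle, was among the 3 higher ones, at 124 with Ascl2 and 118 with the empty vector (log2 ratio 0.07). Idh2, the mitochondrial NADP-dependent isocitrate dehydrogenase, had 42.4 with Ascl2 and 46.2 with the empty vector (−0.12). The NAD-dependent enzyme is built from 3 kinds of subunit. Its catalytic subunit gene Idh3a had 45.0 with Ascl2 and 44.9 with the empty vector. Idh3b had 105.4 with Ascl2 and 109 with the empty vector, and Idh3g, a regulatory subunit gene, had 145 with Ascl2 and 158 with the empty vector. Idh3g stood at 3.23 times Idh3a with Ascl2 and 3.52 times with the empty vector, so the 3 genes were unequal in level in both libraries and in the same order. Idh3b touches the opposite-strand gene Nop56 over 5 bases, and Nop56 was more abundant than Idh3b, at 194 with Ascl2 and 228 with the empty vector.

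The later steps of the cycle differed by at most 0.24 on the log2 scale. Ogdh, the 2-oxoglutarate dehydrogenase, had 47.1 with Ascl2 and 55.9 with the empty vector (log2 ratio −0.24), and Dlst, the succinyl transferase of the same complex, had 97.1 with Ascl2 and 109.6 with the empty vector (−0.17). Both components that are particular to that complex were thus lower with Ascl2 while the shared Dld was higher. Suclg1, the common α subunit of succinate-CoA ligase, had 64.0 with Ascl2 and 74.2 with the empty vector (−0.21). Sucla2, the ATP-forming β subunit, had 39.6 with Ascl2 and 40.4 with the empty vector (−0.03), and Fh1, the fumarase, had 97.1 with Ascl2 and 97.8 with the empty vector (−0.01).

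Malate dehydrogenase had a mitochondrial and a cytosolic gene that differed in direction. Mdh2, the mitochondrial enzyme, had 117.9 with Ascl2 and 137.6 with the empty vector (log2 ratio −0.22). Mdh1, the cytosolic enzyme of the malate-aspartate shuttle, had 108.4 with Ascl2 and 99.96 with the empty vector (0.12). Mdh2 was at 1.09 times the level of Mdh1 with Ascl2 and at 1.38 times with the empty vector, and this ratio also does not depend on the scaling. Pyruvate dehydrogenase and the TCA cycle together summed to 1243 with Ascl2 and 1287 with the empty vector.

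Ratios across the 40 genes went weakly with level and with gene span. Against the mean log2 level, Pearson's r was −0.26 and Spearman's rho −0.20 over the 40, and −0.06 and −0.11 over all 12283 kept genes. Against genomic span (on a log10 scale for r), r was 0.35 and rho 0.22 over the 40, and 0.07 and 0.19 over the 11327 kept genes with a span in the reference. These are descriptions across genes that come from the same 2 libraries, and genes are not independent replicates. Removing either trend moved the median of the 40 to −0.05.

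**Figure D4:**
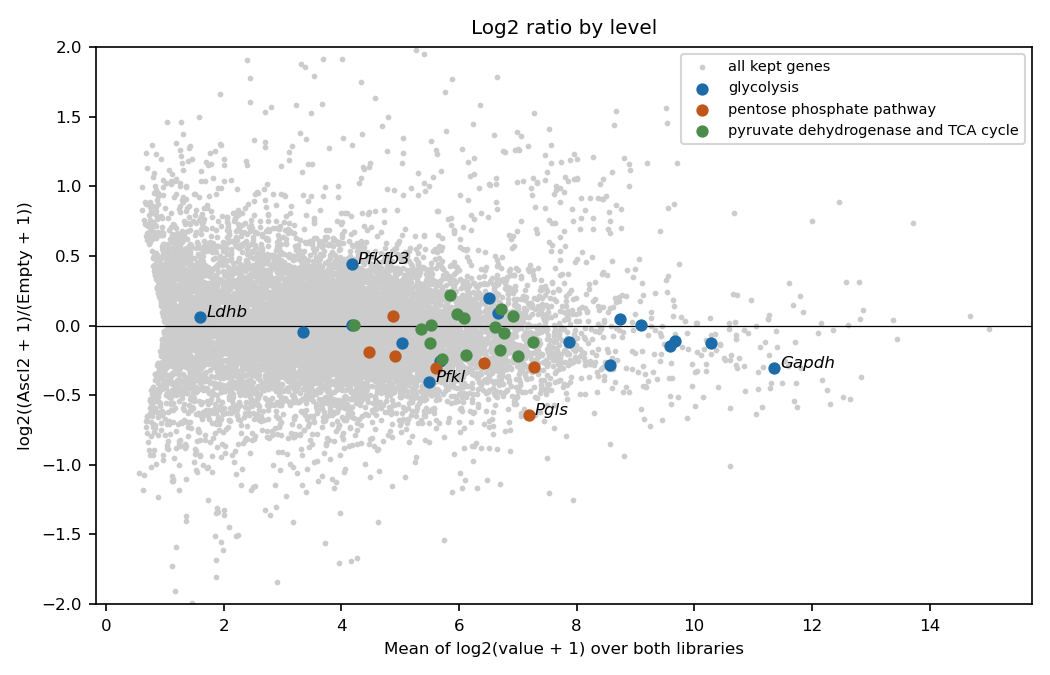
Log2 ratio of RVKM-Ascl2 over RVKM-Empty against the mean of log2(value + 1) over both libraries, for the 40 enzymes (coloured by pathway) and all 12283 kept genes (grey), of which 28 lie outside the plotted range of −2 to 2. The enzymes sit inside the cloud at every level, with Pgls (−0.64) and Pfkfb3 (0.44) farthest from 0.

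Other genes of the same routes, which feed, branch from or control them, are given for comparison. The list held 66 transporters, minor isozymes, kinases, phosphatases, further TCA enzymes and regulators, of which 49 were kept. Among these 49 the count past 1.5-fold was 0 on the higher side and 0 on the lower side, beside 5.01% and 4.31% of all kept genes. A ratio between −0.3 and 0.3 was found for 38 of the 49, or 77.6%, beside 87.5% of the 40 enzymes and 66.7% of all kept genes. A ratio below 0 was found for 31, or 63.3%, beside 51.6% of all kept genes, and their median was −0.08. Pdp1, a phosphatase that activates pyruvate dehydrogenase, had 8.59 with Ascl2 and 6.55 with the empty vector (log2 ratio 0.34), the highest ratio among the 49 genes kept.

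The other 7 of the 8 genes with the largest absolute ratios on that list were lower with Ascl2. Slc16a3, a lactate exporter, had 41.1 with Ascl2 and 59.7 with the empty vector (log2 ratio −0.53). Mpc2, a subunit of the mitochondrial pyruvate carrier, had 16.1 with Ascl2 and 21.6 with the empty vector (−0.40). Pdhx, which anchors the Dld subunit to pyruvate dehydrogenase, had 10.5 with Ascl2 and 13.95 with the empty vector (−0.38), so this part of the complex did not share the direction of the 4 genes above. Aco1, the cytosolic aconitase, had 10.2 with Ascl2 and 13.4 with the empty vector (−0.37). Pfkfb4, a relative of Pfkfb3, had 2.80 with Ascl2 and 3.91 with the empty vector (−0.37), and Slc16a7, another monocarboxylate transporter, had 2.52 with Ascl2 and 3.44 with the empty vector (−0.34). Slc2a6, a member of the glucose transporter family, had 49.1 with Ascl2 and 61.8 with the empty vector (−0.33). Pfkfb3 and Pfkfb4 thus differed in direction, with Pfkfb4 much the lower in level.

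The following 3 genes of the list were singled out after their values were seen. Slc2a1, the main glucose transporter of activated lymphocytes, had 29.2 with Ascl2 and 32.4 with the empty vector (log2 ratio −0.14). Hif1a, the hypoxia-inducible regulator of glycolysis genes, had 22.7 with Ascl2 and 23.5 with the empty vector (−0.05). Pdk1, the kinase that inactivates pyruvate dehydrogenase, had 56.4 with Ascl2 and 44.95 with the empty vector (0.32). None of these 3 passed 1.5-fold, as already given for the whole list, beside 5.01% of all kept genes higher and 4.31% lower.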

How the data were processed

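The 2 RNA libraries, RVKM-Ascl2 and RVKM-Empty, were grouped by sample title. The authors deposited 1 signal (abundance) value per gene and library. Per the labels' protocols RNA was extracted with Trizol. Per the submitters' processing notes the build was mm10 and the tools were Trim Galore, Bowtie2, Picard and MACS2, with no versions. Which of them served the RNA libraries, and the quantifier, annotation and strandedness, is not given in the sources used here. Depth is unknown; low values had a ratio of Ascl2 to empty vector that peaked at 1.145 to 1.15 (24 genes), which is taken as how much deeper the empty-vector library was.

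Symbols were matched exactly. All 40 carried the reference symbol of their Ensembl identifier, and spans and coordinates came from RefSeq on GRCm38.p6, matched by symbol. The values are not counts and there was 1 library per group, so no count model or test was used. Log2 ratios had a pseudocount of 1, and genes reaching 1 in at least 1 library were kept. The threshold was 1.5-fold. All 40 enzymes could be named. Of the other pathway genes, the rule allowed those past 1.5-fold and the 8 with the largest absolute ratios. Slc2a1, Hif1a and Pdk1 were named outside that rule, after their values were seen. Ascl2, Pcdh15, some cell type markers, copies and overlapping genes were also named. The enzymes, lists and threshold were chosen with earlier results of these data known. Alternatives were pseudocounts of 0.1 and 5, no filter and filters of 5 and 50, 3 rescalings, running medians over 501 genes by span or level, 2-fold and a lower threshold (a ratio of 5 to 4), and the mean. A few genes of the lists are not reported here. Only the fold threshold and the removal of a trend by level were tried on simulated data. The other steps were not, and the simulation does not give the error of these libraries. Python 3.11.15, numpy 2.4.6, pandas 2.3.3, scipy 1.17.1 and matplotlib 3.10.9 were used.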

Additional observations from a re-analysis of the deposited data

How the results depend on the processing

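No paired analysis was possible because each group had 1 library and the labels carry no replicate numbers. Without replicates, a log2 value was taken as moved when it changed by 0.05 or more and a percentage when it changed by 5% or more. The count of enzymes at least 1.5-fold lower was 1 with the main settings, where 4.31% of all kept genes were that much lower. It was 0 with equal sums without immunoglobulin genes and Pcdh15, where 2.97% were. It was also 0 with the trend by span removed (3.10%), with the trend by level removed (4.29%) and at 2-fold (0.716%). At the lower threshold (a ratio of 5 to 4) 2 enzymes were lower and 1 was higher in place of 0. The share of all kept genes past that threshold was not computed. For a range of nearly that width, log2 ratios between −0.3 and 0.3, 66.7% of all kept genes and 87.5% of the enzymes lay inside. With equal sums without immunoglobulin genes and Pcdh15 the medians were −0.023 (all enzymes), −0.017 (glycolysis), −0.18 (pentose phosphate) and 0.071 (pyruvate dehydrogenase and TCA), the last with a changed sign. The median of all kept genes was then 0.069. With the trend by span removed the enzyme medians were −0.045, −0.034, −0.21 and 0.01, and with the trend by level removed −0.046, −0.047, −0.21 and 0.02. The median of all genes used was 0.0002 with the trend by span removed and 0.0005 with the trend by level removed. Leaving immunoglobulin genes and Pcdh15 out of the total, the enzymes took 1.305% with Ascl2 and 1.37% with the empty vector, glycolysis 1.05% with Ascl2 and 1.11% with the empty vector, pentose phosphate genes 0.0677% with Ascl2 and 0.0818% with the empty vector, and pyruvate dehydrogenase and TCA genes 0.187% with Ascl2 and 0.182% with the empty vector; the last pair changed order (over all genes 0.163% with Ascl2 and 0.171% with the empty vector). Glycolysis without Gapdh, an alternative chosen after seeing the data, took 0.606% with Ascl2 and 0.660% with the empty vector. Adding near-identical copies changed no isozyme share, because none of the isozymes had one among those searched. Of the 40 single ratios, 40 moved by 0.05 or more under the rescaling without immunoglobulin genes and Pcdh15. Its factor raises a log2 ratio by up to 0.09, which exceeds that limit, so this count follows from the factor. Under the other rescalings (log2 factors of 0.014 and −0.025) the number was 0. It was 29 with the trend by level removed, 15 with the trend by span removed and 1 with a pseudocount of 5. Apart from that arithmetic, the causes were not tested. Depth is unknown, so counting error cannot be given, and it weighs most on Ldhb.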
